A study of Mus musculus with 24 samples.

Results

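Of 21938 protein-coding promoter windows in the mouse genome, 285 (1.299%) carried at least 1 H3K27me3 peak in each of 24 CUT&RUN libraries of cultured cerebellar granule neurons (CGNs). A window reached 3 kb up and 3 kb down from a gene's 5′ end in the GENCODE annotation of the mm10 build, and an overlap of 1 bp with a deposited peak was enough. A further 219 windows had a peak in 23 libraries, 7841 in 1 to 22 libraries and 13593 in none. The 285 were selected on the presence of a peak in each library, so their peak frequency and their levels relative to other promoters are given as descriptions without tests. Comparisons between groups of libraries were tested over every promoter with a value, and only the 285 are printed. A promoter that lost its last peak in any library is not among them by construction.

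The libraries came from granule neuron precursors that were purified on Percoll gradients from the cerebella of CD1-IGS mice, with pups 6 to 8 days old from pooled litters making up a replicate. All groups were cultures from this strain, and each had 3 libraries. The time course comprised harvests on day in vitro (DIV) 1, DIV3, DIV5 and DIV7. Cultures harvested after DIV1 had also received AraC, which kills dividing cells. In the drug experiments, 5 µM GSK-126, an inhibitor of the methyltransferase EZH2, was compared with its own DMSO vehicle cultures, and 1 µM GSK-J4, an inhibitor of KDM6 demethylases, with another set of DMSO cultures, all harvested at DIV5 after addition of the compounds at DIV1. A primary culture of this kind also holds a minority of glia and other neurons, and no RNA was measured in these libraries.

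H3K27me3 is written by Polycomb repressive complex 2, whose catalytic subunit is EZH1 or EZH2, and removed by demethylases of the KDM6 family. The mark covers promoters of genes that a cell type keeps silent, typically in CpG-rich DNA, and in neurons many of them are genes of other lineages or of other neuronal classes. In CUT&RUN an antibody against the mark tethers a nuclease that releases the marked fragments for sequencing.

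At 90 of the 285 promoters the peaks of every library had stretches of DNA in common. A few are printed from the GRCm38 reference, 5′ to 3′ on the strand of the named gene, with CpG dinucleotides in capitals. They were picked for the highest fold enrichment (Sspn, Aida and Syap1), for the class I histocompatibility genes (H2-Q4), for a long common stretch in DNA that is not repeated (Anxa11) and for a nuclear receptor and a neuropeptide receptor (Pparg and Avpr1a). Untranslated exon bases were left out, which shortened Syap1 to 186 of 211 bp, and the H2-Q4 and Anxa11 stretches are the central 300 bp of 411 and 365 bp.
Sspn: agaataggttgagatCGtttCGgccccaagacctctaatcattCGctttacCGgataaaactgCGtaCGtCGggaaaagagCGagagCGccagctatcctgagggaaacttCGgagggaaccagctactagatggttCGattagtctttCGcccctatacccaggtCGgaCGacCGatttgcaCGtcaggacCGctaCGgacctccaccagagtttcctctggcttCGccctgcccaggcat
Aida: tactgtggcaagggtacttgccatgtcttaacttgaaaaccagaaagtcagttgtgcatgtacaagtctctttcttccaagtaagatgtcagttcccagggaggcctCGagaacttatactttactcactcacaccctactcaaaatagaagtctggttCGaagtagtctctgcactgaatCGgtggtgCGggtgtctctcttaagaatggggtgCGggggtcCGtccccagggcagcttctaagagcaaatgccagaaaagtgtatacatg
Syap1: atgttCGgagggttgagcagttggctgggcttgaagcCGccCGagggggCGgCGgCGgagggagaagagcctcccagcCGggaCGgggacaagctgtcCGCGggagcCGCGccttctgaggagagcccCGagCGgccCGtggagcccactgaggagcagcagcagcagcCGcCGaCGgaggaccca
H2-Q4: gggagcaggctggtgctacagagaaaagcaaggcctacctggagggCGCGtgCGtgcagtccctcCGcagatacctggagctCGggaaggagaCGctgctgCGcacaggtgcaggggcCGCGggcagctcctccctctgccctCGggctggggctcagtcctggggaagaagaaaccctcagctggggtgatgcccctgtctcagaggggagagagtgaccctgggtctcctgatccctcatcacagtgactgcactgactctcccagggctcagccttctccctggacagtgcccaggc
Anxa11: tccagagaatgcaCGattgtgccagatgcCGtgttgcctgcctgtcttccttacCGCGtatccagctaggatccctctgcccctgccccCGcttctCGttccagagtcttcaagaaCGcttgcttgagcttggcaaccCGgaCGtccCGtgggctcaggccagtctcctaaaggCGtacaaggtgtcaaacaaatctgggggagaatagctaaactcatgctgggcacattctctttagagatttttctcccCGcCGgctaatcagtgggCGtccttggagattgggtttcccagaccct
Pparg: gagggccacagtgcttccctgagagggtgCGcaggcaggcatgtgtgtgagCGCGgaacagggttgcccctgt
Avpr1a: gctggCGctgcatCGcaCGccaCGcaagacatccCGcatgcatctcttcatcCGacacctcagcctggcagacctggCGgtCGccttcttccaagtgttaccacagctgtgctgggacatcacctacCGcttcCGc

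The Sspn stretch is chr6:145932768-145933009 on the plus strand, in an intron, and holds 19 CpGs. The Aida stretch, chr1:183299237-183299508 on the plus strand, is also intronic and has only 6 CpGs. On the X chromosome, the Syap1 stretch (chrX:162888100-162888285, minus strand) lies in coding sequence with 18 CpGs in 186 bp. The H2-Q4 stretch is chr17:35380529-35380828 (plus strand) and the Anxa11 stretch is chr14:25842603-25842902 (plus strand, intronic). The Pparg stretch, chr6:115361829-115361901 on the plus strand, is intronic and 73 bp long, and the Avpr1a stretch, chr10:122449023-122449158 on the plus strand, is coding sequence of the vasopressin receptor. The stretches differed in their observed-to-expected CpG ratio, which was 1.06 in Sspn, 0.828 in Avpr1a, 0.771 in Syap1 and 0.615 in Anxa11, and 0.406 in Pparg, 0.393 in Aida and 0.313 in H2-Q4.

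Each printed stretch also differed in how often its sequence recurs in the genome. In the 301 bp around the Sspn stretch, 91.9% of the 32-base words occurred more than once in the reference, against 20.7% around the Aida stretch and 0% around Syap1, Anxa11, Pparg and Avpr1a. Around the H2-Q4 stretch the share was 76.7%. By a line of 50% of such words, 45 of the 285 promoters (15.8%) had repeated sequence under their most widely shared peak bases, against 12 of the 219 promoters with a peak in 23 libraries (5.48%). Of the 45, 27 belonged to the 37 gene models named only Gm or Rik and 18 to the other 248 genes. The 18 included Sspn, Fbxo34, Setdb1, Nid1, Hspb1 and 7 H2 genes. How the authors' alignment treated reads with several matches is not given in the sources used here, and the closing section gives the counts without these 45.

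Peak lists differed in length between libraries, with 4740 to 22832 peaks and 1.07 to 6.57 Mb covered per library. The lists of DIV1 replicate 1 and DIV3 replicate 1 were short against the other 2 libraries of their day, at 1.33 Mb against 4.08 and 5.19 Mb and at 1.11 Mb against 3.40 and 6.57 Mb. Replicate 3 of GSK-126 touched 3285 promoter windows with 7839 peaks, against 2034 windows with 8723 peaks in replicate 1. Read depth is unknown for all libraries. Among markers of the labelled cell type, 5 of 12 granule neuron promoters had a peak in any library and none was among the 285, with Neurod1 at 5 libraries and Cbln1 at 4. Of 22 glial and vascular marker promoters 9 had a peak somewhere, and Cldn5, a tight junction gene of endothelium, had one in all 24. Of 6 Purkinje cell and interneuron promoters 3 had a peak in any library, and Pvalb reached 14 libraries. A peak at such a promoter says nothing of how many of those cells a culture held.

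The 285 promoters were spread over 20 chromosomes, with 29 on chromosome 14, 27 on chromosome 17 and 2 on X. The lists they fell in are given with their counts, and differences between lists were not tested. Of 54 neuropeptide and hormone promoters 7 (12.96%) were marked in every library, against 1.299% of all promoters. They were Edn3 (endothelin 3), Crh (corticotropin-releasing hormone), Nmu (neuromedin U), Calcb (a calcitonin gene-related peptide), Tac1 (the substance P precursor), Cartpt (the CART peptide) and Npy (neuropeptide Y). Median fold enrichment over the 24 libraries, which is the authors' ratio of peak signal to local background, was 3.96 at Edn3, 3.72 at Crh and 2.88 at Npy.

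Receptors for such messengers were also represented. Of 205 monoamine, muscarinic, adenosine, purine and peptide receptor promoters 13 (6.34%) were marked throughout, among them the neuropeptide Y receptor Npy5r (median fold enrichment 3.90), the prokineticin receptor Prokr2 (3.64), the adenosine receptor Adora2a (3.46), Avpr1a (3.43), the somatostatin receptors Sstr5 (3.36) and Sstr1 (3.18), and the dopamine receptor Drd4 (3.12). Of the other receptor and channel lists, 0 of 70 promoters of glutamate, GABA, glycine and nicotinic receptor subunits and 0 of 72 of calcium and sodium channels were marked in all libraries, and 44 and 43 of them had a peak in at least 1. At 1.299% of all promoters, lists of this size would hold about 1 member. Of 93 potassium channel promoters there were 3, namely Kcnk5, Kcnc2 and Kcne3.

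Immune genes contributed 17 of 357 promoters, and 11 of the 17 were class I histocompatibility genes on chromosome 17, which present peptides to T cells. Their median fold enrichment ran from 5.04 at H2-Q4 and 5.04 at H2-T23, through 3.97 at H2-D1 and 3.25 at H2-K1, to 2.84 at H2-T3 and 2.76 at H2-Q1. By the 50% line 7 of the 11 lay in repeated sequence, so reads of these near-identical genes may not be separable. The other immune promoters were the chemokine Cxcl5 (4.20), the RANK ligand gene Tnfsf11 (3.62), the interleukin 10 receptor Il10ra (3.54), Cd83, Cd70 and Il1rl2.

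Developmental regulators were present at shares that differed between lists. Among transcription factors, the homeobox gene Dlx3 was the single member of 143 non-Hox homeobox promoters on the list, Hes2 the single one of 78 basic helix-loop-helix genes, and Pparg, the regulator of fat cell formation, the single one of 47 nuclear receptors. These shares were 0.699%, 1.28% and 2.13%, against 1.299% of all promoters. Of 91 zinc-finger fate factors 4 (4.40%) were present, namely Glis3, the lymphoid factor Ikzf1, Klf2 and the plasma cell repressor Prdm1. None of 39 Hox, 17 T-box, 44 forkhead and 19 Sox promoters was marked in all 24 libraries, and 13, 6, 26 and 13 of them had a peak in at least 1 library. At the share of all promoters, lists this short would mostly hold no member. In signalling pathways, 4 of 59 Wnt promoters were marked throughout (the receptor Fzd6, the antagonist Dkk2 and the R-spondins Rspo3 and Rspo4), with Lefty2 of 67 BMP and TGF-beta promoters, Lfng of 28 Hedgehog and Notch promoters, and Gfra3, Fgf17 and Igf1 of 106 growth factor promoters. In this order the shares were 6.78%, 1.49%, 3.57% and 2.83%.

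Structural genes of other tissues made up further groups, with 6 of 142 matrix promoters, among them Col23a1, Adamts19, Nid1 and Lox, and 5 of 118 promoters of epithelial junctions and keratins, among them Cldn4, F11r and Cldn5. Solute carriers had 9 of 371. These shares were 4.23%, 4.24% and 2.43%, against 1.299% of all promoters. None of 84 ribosomal protein promoters, 1435 olfactory and vomeronasal receptor promoters or 74 axon guidance promoters was among the 285. At 1.299%, the ribosomal and axon guidance lists would hold about 1 member each. In all, 77 of the 285 were in at least 1 of the 29 gene lists.

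Peaks of the different libraries overlapped at most promoters, but a base common to all of them was less frequent. A base covered in all 24 libraries existed at 90 of the 285 promoters, and the longest run of such bases at these had a median length of 93.5 bp. At the other 195 promoters no single base was covered throughout, and 246 of the 285 had a base covered in 20 libraries or more. Among named genes the most bases common to all libraries were at Nid1 (502 bp), which encodes the basement membrane protein nidogen, Lrat (498 bp), the enzyme that esterifies retinol, H2-Q4 (411 bp), Anxa11 (365 bp), the extracellular matrix gene Frem3 (359 bp) and L1td1 (353 bp). In 8 promoters the common stretch was shared with a neighbour, including Brox with Aida and Gemin7 with Zfp296, so these pairs are not independent values.

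The shared bases lay mainly just inside the genes. Of the 90 common stretches 72 lay wholly downstream of the 5′ end, 8 wholly upstream and 10 across it. Over all 285 promoters the midpoint of the most widely shared run was downstream at 245 and upstream at 40, with a median of 423 bp downstream. At the 219 promoters with a peak in 23 libraries it was downstream at 172 and upstream at 47 (median 385 bp downstream). By annotation, 124 of the 285 midpoints were intronic, 60 in untranslated exons, 47 in coding exons, 13 in other exons and 41 outside the gene.

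**Figure D1:**
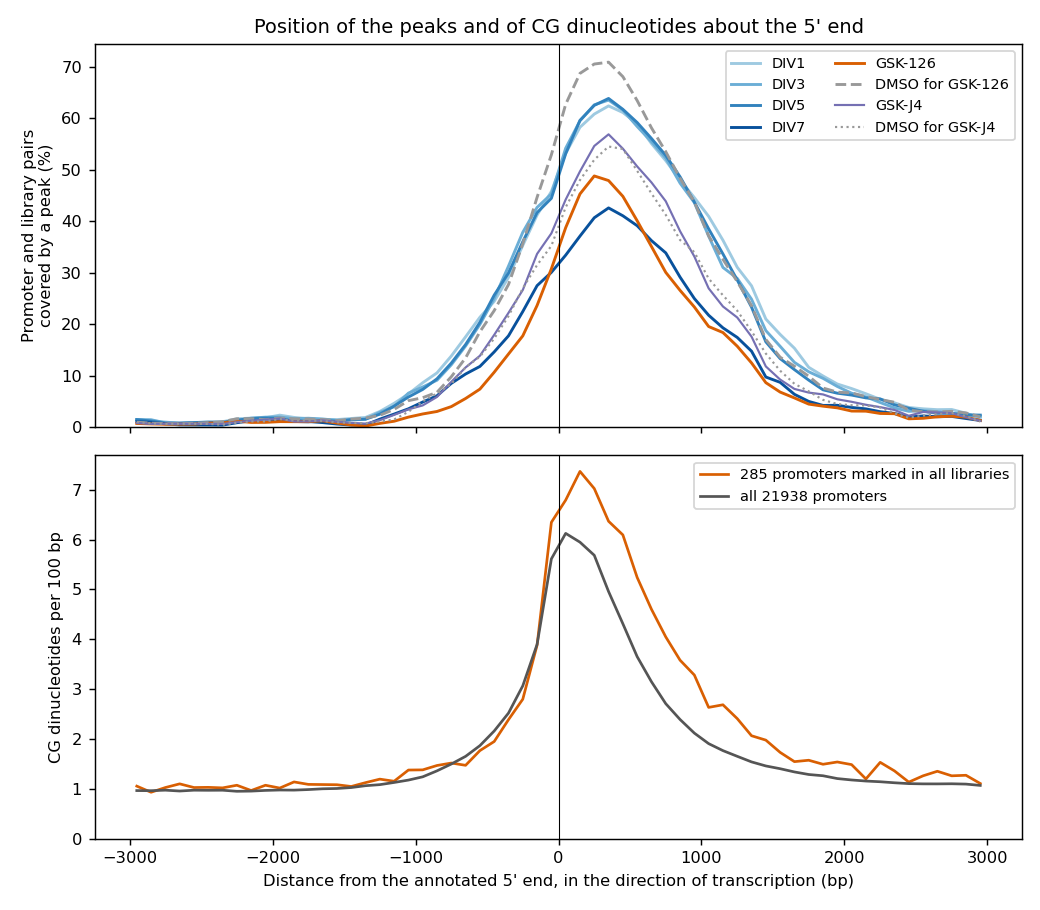
Against distance from the 5′ end in bp, the upper panel plots the percentage of promoter and library pairs covered by a peak at the 285 promoters, 1 line per group, and the lower panel plots CpG dinucleotides per 100 bp at the 285 and at all promoters. Over all groups coverage was highest 300 to 400 bp downstream of the 5′ end, at 57.8%, and the lines of DIV7 (42.6%) and GSK-126 (47.9%) are lowest there.

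Coverage 300 to 400 bp downstream of the 5′ end was 57.8% of all promoter and library pairs, against 40.3% in the last 100 bp before the 5′ end. In the groups it was 62.4% at DIV1, 63.5% at DIV3, 63.8% at DIV5 and 42.6% at DIV7. With GSK-126 it was 47.9%, against 70.9% in DMSO, and with GSK-J4 it was 56.9%, against 54.5% in DMSO. The 285 windows also held more CpGs than other windows at these positions. From 200 to 300 bp downstream there were 7.02 CpGs per 100 bp at the 285 promoters and 5.69 over all windows, and from 600 to 700 bp there were 4.60 and 3.15.

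In the central 1 kb the 285 promoters had a median observed-to-expected CpG ratio of 0.603 and a GC content of 58.6%, against 0.552 and 54.7% over all windows and 0.432 and 52.5% over windows with no peak in any library. Promoters with a peak in 1 to 11 libraries had a higher ratio, at 0.648, so CpG content did not run in step with the number of libraries.

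Fold enrichment was similar across most of the 285 promoters. The median over the 24 libraries was between 2.47 and 11.02, with a median of 3.66, and 262 promoters were under 4.5. Peak width, taken as the length of the longest peak that touched the window, had a median of 675.5 bp and varied far more between libraries of the same promoter. The coefficient of variation over the 24 libraries had a median of 8.02% for fold enrichment and 50.8% for width. The highest library exceeded the lowest by a median of 1.36 times in fold enrichment and 8.89 times in width. Across the 285 promoters, log2 fold enrichment and log2 width had a Pearson correlation of -0.213 and a Spearman correlation of 0.00877, given as a description over promoters that share libraries.

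**Figure D2:**
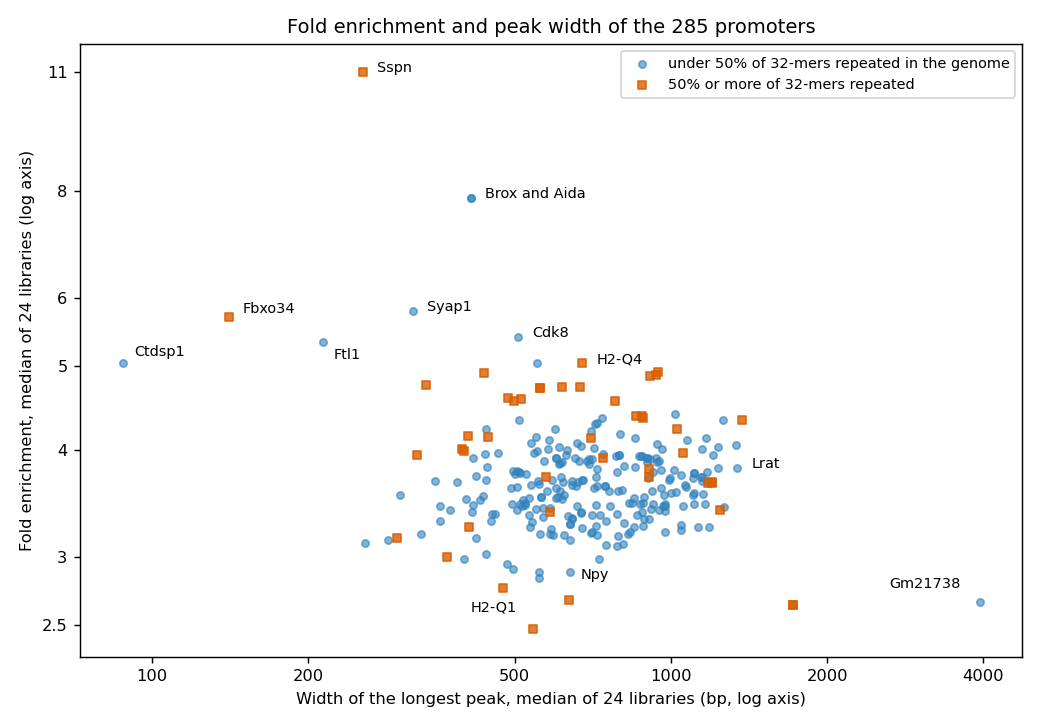
Median fold enrichment of each of the 285 promoters against its median peak width in bp, over 24 libraries, both on log axes, with squares where 50% or more of the 32-base words recur in the genome and circles elsewhere. Most points sit near 3.66 in fold enrichment and 675.5 bp in width, with Sspn at 11.02 and 255 bp far above the rest.

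The 285 differed from promoters with fewer peaks in width rather than in fold enrichment. Median fold enrichment was 3.66 at the 285 promoters, 3.58 at those with a peak in 23 libraries, 3.72 at those with 12 to 22 and 4.01 at those with 1 to 11. Median width was 675.5 bp, 551 bp, 307 bp and 161 bp in the same order. A longer peak meets a window more easily, and presence was the rule, so no test of these values was made.

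Just inside the rule, the promoters whose weakest library was weakest were Clic5, a chloride channel family gene, at a −log10 q of 1.01, Rspo3 (1.01), Kank1 (1.03) and the adenylate kinase Ak5 (1.04), next to the lowest value any list held, 1.00. In 156 of the 285 promoters the weakest library had a −log10 q under 1.3, and in 16 it was 2 or more. Just outside it, with a peak in 23 libraries, the highest median fold enrichment among named genes was at the chromatin protein gene Hmgb2 (4.99), which had no peak in DIV7 replicate 2, and at Clvs2 (4.49), Eif5 (4.48) and Slc22a21 (4.43), which had none in a GSK-126 library. Of the 219 promoters of this kind, 56 lacked a peak in DIV7 replicate 2, 51 in GSK-126 replicate 2 and 25 in DIV1 replicate 1. All 3 lists were short, at 1.19, 1.07 and 1.33 Mb. Other lists were about as short, namely DIV3 replicate 1 (1.11 Mb) and DIV7 replicate 1 (1.25 Mb), and 16 and 12 promoters lacked a peak only there. In GSK-126 replicate 3 (1.63 Mb) the count was 23. The part of list length in these counts was not tested.

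Sspn, which encodes sarcospan, a member of the dystrophin-glycoprotein complex of muscle, had the highest and one of the most even peaks. Its fold enrichment was 9.27, 10.5 and 11.1 at DIV1, 9.40, 9.04 and 11.6 at DIV3, 11.004, 11.03 and 10.98 at DIV5 and 9.48, 9.11 and 10.5 at DIV7. It was 10.96, 11.9 and 11.7 with GSK-126 and 11.3, 12.1 and 11.9 in DMSO, and 11.95, 10.1 and 11.2 with GSK-J4 and 11.8, 10.5 and 11.4 in DMSO. DIV5 lay above DIV7 in every library, and each group overlapped DIV1 except DMSO of GSK-126. The peak was 249 to 263 bp wide in all 24 libraries, 1.06 times from the narrowest to the widest, and its 242 bp common stretch began 1127 bp downstream of the 5′ end (chr6:145931641).

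Brox and Aida, neighbouring genes on chromosome 1, shared the next highest peak, 2647 to 2918 bp downstream of the Aida 5′ end. Its fold enrichment was 10.9, 11.7 and 8.75 with GSK-126, against 9.62, 8.95 and 9.23 in DMSO, and ranges overlapped (adjusted p = 0.208, limma). At DIV7 it was 7.10, 5.70 and 6.60, against 6.97, 6.16 and 7.70 at DIV1. The lowest GSK-126 library lay below all 3 DMSO libraries and the others above them, and the width stayed between 308 and 432 bp.

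Other genes with high median fold enrichment were Syap1 (5.80), Fbxo34 (5.71), the Mediator kinase Cdk8 (5.42), the ferritin light chain gene Ftl1 (5.33) and the phosphatase gene Ctdsp1 (5.05). Their peaks were narrow, at medians of 318, 140.5, 507.5, 213.5 and 88 bp, and these genes are known to be active in most cell types. Of the 23 promoters at 4.5 or more, 16 were in repeated sequence by the 50% line, while Syap1 had no repeated word. Peaks of nearly constant width were also mostly of this kind: of 18 promoters whose widest peak was under 3 times the narrowest, 11 were in repeated sequence.

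The widest peaks at named genes were at Lrat (median 1344 bp), the aminopeptidase gene Lvrn (1332.5 bp), Avpr1a (1264 bp), Samd11 (1260.5 bp), Nid1 (1241 bp), the phospholipase gene Pld1 (1234.5 bp), Susd3 (1232.5 bp) and Corin (1206.5 bp), a protease that activates natriuretic peptide. Lrat peaks were 861, 922 and 1595 bp wide at DIV1, 1293, 1772 and 1887 bp at DIV3, 1793, 1331 and 1891 bp at DIV5 and 956, 906 and 1690 bp at DIV7. They were 967, 991 and 813 bp with GSK-126 and 1552, 1550 and 1567 bp in DMSO. Every GSK-126 peak was narrower than every DMSO peak, and the difference did not pass (log2 change -0.76, adjusted p = 0.288, limma).

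**Figure D3:**
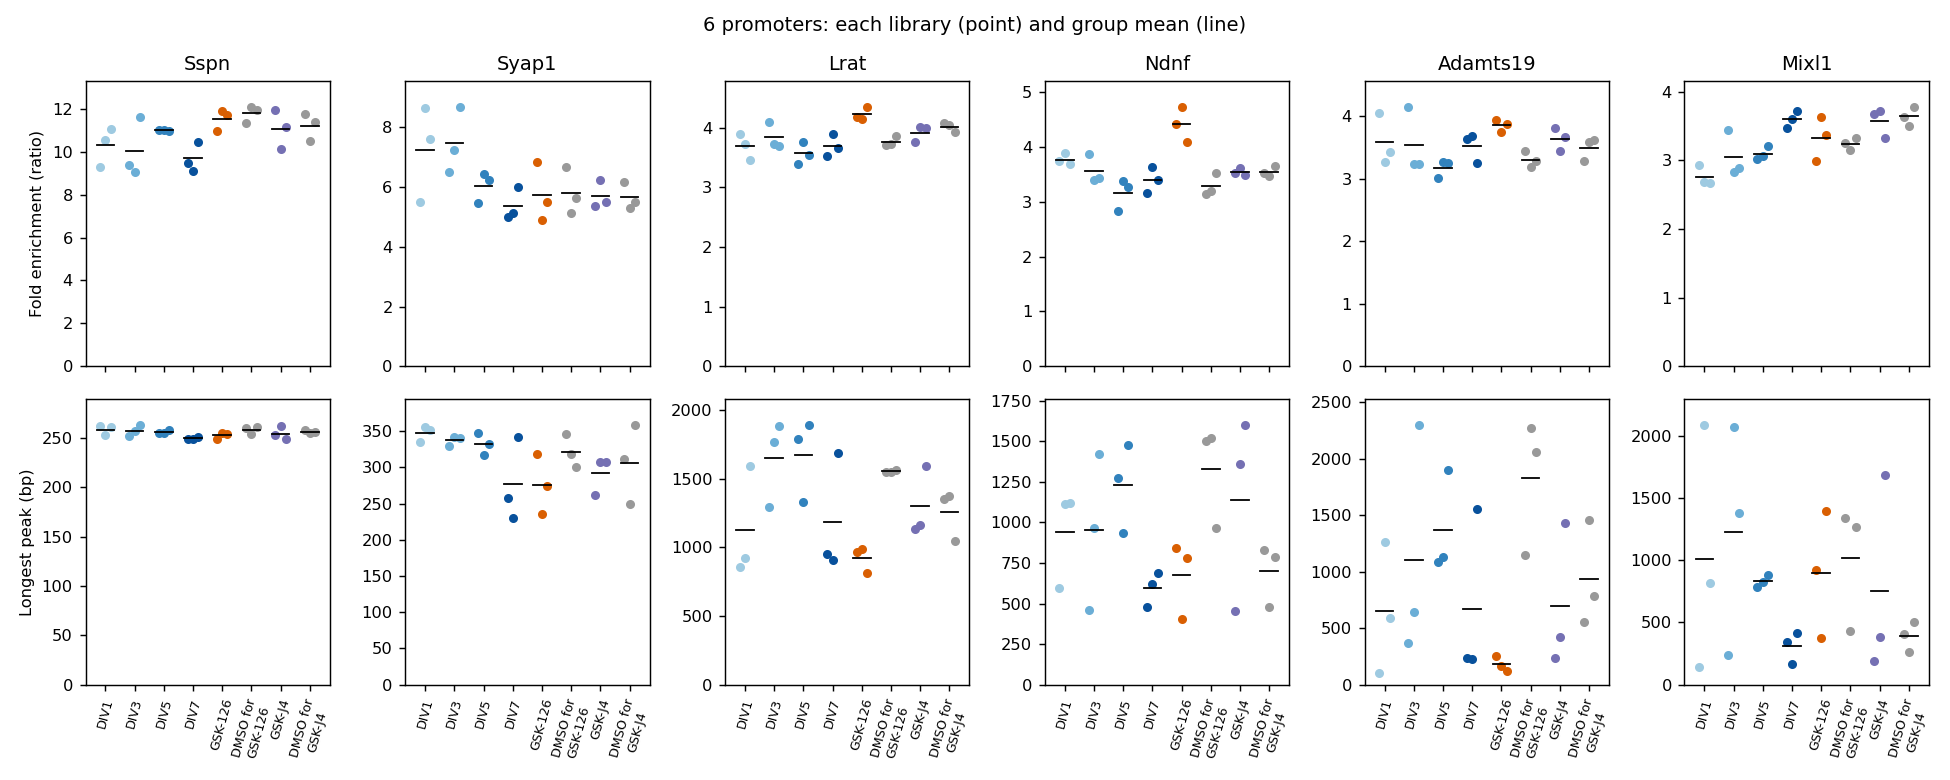
Fold enrichment and peak width in bp of 6 of the promoters in each of the 24 libraries, with groups along the horizontal axis, 1 point per library and lines at the group means. At Sspn the widths stay between 249 and 263 bp in all groups.

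Median values over the 285 promoters were set beside the length of each list. The median width per library was 397 to 1171 bp at DIV1, 455 to 1203 bp at DIV3, 667 to 963 bp at DIV5 and 341 to 562 bp at DIV7. It was 352 to 627 bp with GSK-126 and 865 to 952 bp in DMSO, and 467 to 954 bp with GSK-J4 and 559 to 639 bp in DMSO. Lists covered 1.19 to 2.25 Mb at DIV7 and 1.33 to 5.19 Mb at DIV1, and 1.07 to 2.00 Mb with GSK-126 and 3.29 to 4.23 Mb in DMSO. The 285 windows held between 6.23% and 16.3% of the covered length of a library, with the lowest share in the longest list, DIV3 replicate 3, and the highest in the shortest of the time course, DIV3 replicate 1. The part of list length in the differences between groups was not tested apart from the alternatives given in the closing section.

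**Figure D4:**
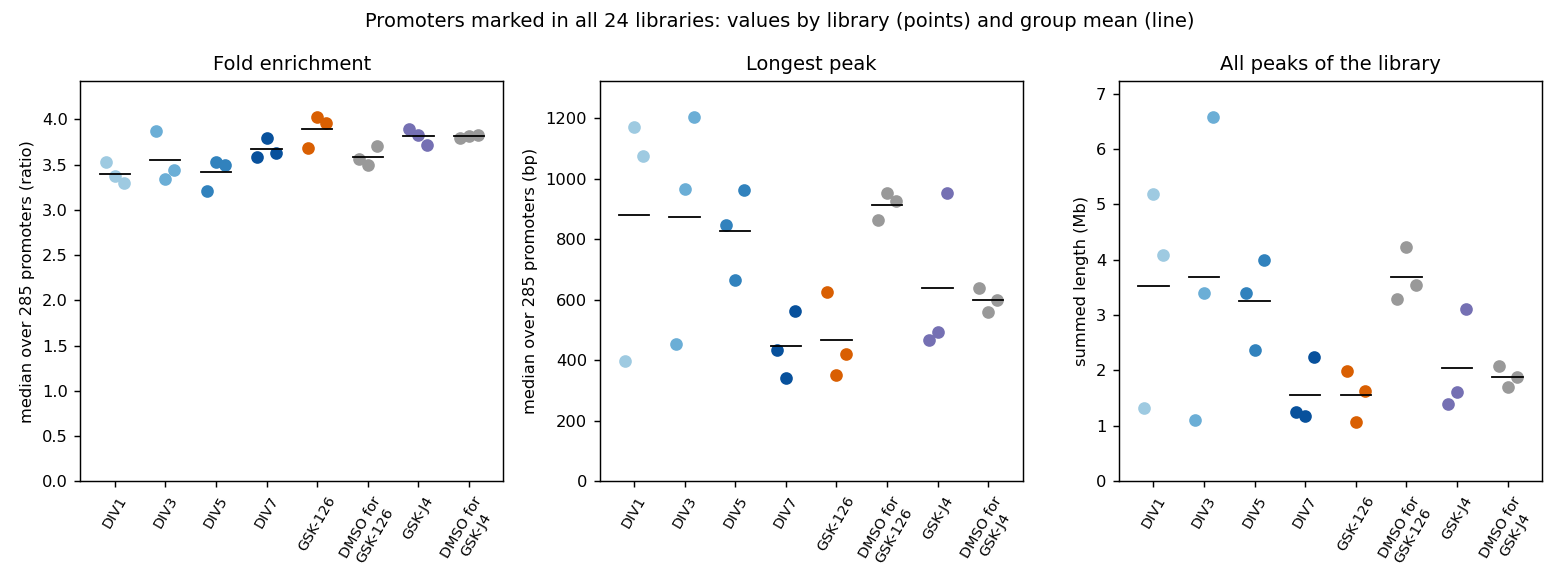
Median fold enrichment and median width in bp of the longest peak over the 285 promoters, and summed length of all peaks in Mb, 1 point per library with lines at the group means. Fold enrichment lies between 3.21 and 4.02, and width between 341 and 1203 bp.

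The time course asks whether the marked promoters differed between DIV1 and DIV7. All DIV7 cultures and no DIV1 cultures had received AraC, so maturation and AraC cannot be told apart in this comparison. Fold enrichment was higher at DIV7 than at DIV1 at 36 of the 285 promoters (12.6%) and lower at 2 (limma over 487 promoters with a peak in all 12 libraries, Benjamini-Hochberg adjusted p under 0.05). Over all promoters tested, 13.3% were called higher and 0.616% lower, which are shares close to those of the 285. The median change was 0.10 on the log2 scale at the 285 and 0.09 over all. With each library centred on its median, the calls were 22 higher and 15 lower, against 37 higher and 31 lower of all 487.

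Mixl1, a homeobox gene of the primitive streak, had the smallest adjusted p. Its fold enrichment was 2.93, 2.69 and 2.66 at DIV1, 3.43, 2.83 and 2.88 at DIV3, 3.02, 3.06 and 3.21 at DIV5 and 3.47, 3.60 and 3.72 at DIV7. All 3 DIV7 libraries exceeded all DIV1 libraries, with 3.60 ± 0.12 at DIV7 and 2.76 ± 0.15 at DIV1 (SD, n = 3 each, log2 change 0.38, adjusted p = 0.000456, limma). The same held for Fgf17, a fibroblast growth factor of the midbrain and hindbrain boundary, at 3.54, 3.64 and 3.85 at DIV7, against 2.96, 2.80 and 2.84 at DIV1 (log2 change 0.36, adjusted p = 0.00101). Stac2, an adaptor of calcium channels, had 3.41, 4.12 and 3.84 at DIV7, against 3.14, 2.80 and 2.81 at DIV1. Groups did not overlap at Stac2 either (log2 change 0.38).

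Other promoters called higher at DIV7 included the small heat shock gene Hspb1 (log2 change 0.35), the phosphatase gene Ppm1n (0.35) and Wdr86 (0.34). Hspb1 had 3.36, 3.51 and 3.87 at DIV7, against 2.93, 2.83 and 2.63 at DIV1, without overlap, and lay in repeated sequence. By list, calls higher at DIV7 included 1 of 3 growth factors (Fgf17), 1 of 3 potassium channels (Kcne3), 1 of 13 receptors (Drd4) and 1 of 17 immune genes (H2-K1). The matrix gene Lox and the tight junction gene Cldn4 were also called. Of all 487 promoters tested 13.3% were called higher, and lists this short were not compared with that share. None of the 7 neuropeptide promoters was called. The 2 promoters called lower were Syap1 and the gene model Gm9817. Syap1 had 5.01, 5.13 and 5.99 at DIV7, against 5.50, 8.64 and 7.59 at DIV1, with DIV1 replicate 1 inside the DIV7 range (log2 change -0.41, adjusted p = 0.0228).

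Groups did not overlap, with DIV7 above DIV1, at 98 of the 285 promoters (34.4%), against 32.2% of all promoters tested. The number of calls depended on single libraries: it was 9 without DIV1 replicate 2, 11 without DIV1 replicate 3, 18 without DIV7 replicate 2, 23 without DIV7 replicate 3 and 53 without DIV1 replicate 1. In the same order, calls higher and lower over all promoters tested were 18 and 0 of 488 and 16 and 3 of 490. They were then 38 and 3 of 599, 39 and 3 of 510 and 92 and 3 of 593.

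Peak width at DIV7 was called different from DIV1 at 0 of the 285 promoters, and at 0% of all promoters tested. At an unadjusted p under 0.05, 1 was wider and 41 narrower at DIV7, against 5 and 72 of all 487. The median change was -0.79 on the log2 scale, and a 95% interval reached a median of 1.43 to each side, so changes of this size were not detectable with these libraries. Groups did not overlap, with DIV7 narrower, at 52 promoters (18.2%), against 16.8% of all tested. The smallest p was at Rab37, a GTPase of secretory vesicles, with widths of 405, 169 and 177 bp at DIV7, against 888, 1501 and 1055 bp at DIV1, and at the peptidase gene Pm20d1, and neither passed (adjusted p = 0.0965 for each). Every DIV7 value of Rab37 was below every DIV1 value. Without DIV1 replicate 1, 21 of the 285 promoters were called narrower at DIV7, against 42 of all 593 tested, and without replicate 1 of every day 31 were, against 85 of all 804.

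The GSK-126 experiment asks how promoters that kept a peak responded to inhibition of EZH2. Fold enrichment was higher with GSK-126 than in DMSO at 12 of the 285 promoters (4.21%) and lower at 0, against 8.32% of the 733 promoters tested called in either direction. Replicate numbers were taken to pair these libraries, which the labels do not state. With replicate as a block 32 were called higher and 1 lower, against 137 higher and 3 lower of all 733. The p-values given for single genes are from the fit without the block. The median change was 0.11 on the log2 scale both at the 285 and over all promoters tested, and the mean was higher with GSK-126 at 253 of the 285. With each library centred on its median, 4 were called higher and 2 lower, against 17 higher and 10 lower of all 733. Groups did not overlap, with GSK-126 above DMSO, at 76 promoters (26.7%), against 29.7% of all tested.

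Ndnf, a secreted factor that supports neurons, had the smallest adjusted p. Its fold enrichment was 4.42, 4.73 and 4.09 with GSK-126, against 3.15, 3.19 and 3.53 in DMSO, with no overlap (4.41 ± 0.32 against 3.29 ± 0.21, SD, n = 3 each, log2 change 0.42, adjusted p = 0.00200, limma). Ankrd33b, an ankyrin repeat gene, had 3.60, 3.66 and 3.72 with GSK-126, against 2.87, 2.75 and 2.84 in DMSO (log2 change 0.38, adjusted p = 0.00239). Sstr1 had 3.66, 4.07 and 3.67 with GSK-126, against 3.00, 2.87 and 3.01 in DMSO (log2 change 0.36). In all 3 genes the lowest GSK-126 library lay above the highest DMSO library. With each library centred on its median, the smallest adjusted p at any of the 285 promoters was 0.0416 (limma).

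The remaining 9 included Aff1, a subunit of an elongation complex (log2 change 0.34), the synaptic organizer Cbln2 (0.34), the potassium channel gene Kcnc2 (0.30), Prdm1 (0.29), Crh (0.29), Glis3 (0.25) and Susd5 (0.27). Crh had 4.25, 4.36 and 4.45 with GSK-126, against 3.33, 3.70 and 3.67 in DMSO, and these groups were apart. By list, 2 of the 4 zinc-finger factors (Prdm1 and Glis3), 1 of 7 neuropeptides (Crh), 1 of 13 receptors (Sstr1) and 1 of 3 potassium channels (Kcnc2) were called. Of all 733 promoters tested 8.32% were called, and lists this short were not compared with that share. Without GSK-126 replicate 1, whose list was the longest of its group, 35.8% of the 285 were called, against 338 higher and 1 lower of all 763. Without GSK-126 replicate 2, DMSO replicate 1 or DMSO replicate 2 there were 5, 6 and 6 calls. Over all promoters tested these were 28 of 957, 20 of 752, and 18 higher and 1 lower of 751.

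Peaks were narrower with GSK-126 than in DMSO at 24 of the 285 promoters (8.42%) and wider at 0, against 6.41% of all promoters tested called in either direction. The median change in width was -0.81 on the log2 scale at the 285 and -0.71 over all tested, and the mean was lower at 259 of the 285. Groups did not overlap, with GSK-126 narrower, at 118 promoters (41.4%), against 29.2% of all tested. No promoter was called with libraries centred on their medians, with replicate as a block, or without any 1 of 5 of the 6 libraries. Without GSK-126 replicate 1, 33 of the 285 were called narrower, against 67 of all 763 tested.

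Adamts19, a secreted metalloproteinase gene, had the largest decrease. Its peak was 253, 163 and 121 bp wide with GSK-126, against 1151, 2269 and 2058 bp in DMSO (179 ± 67.4 against 1826 ± 594 bp, SD, n = 3 each, log2 change -3.36, adjusted p = 0.0222, limma). Pdzrn4 peaks averaged 170 ± 60.8 bp with GSK-126 and 1379 ± 219 bp in DMSO (log2 change -3.08). At both genes all GSK-126 peaks were far shorter than all DMSO peaks, while fold enrichment at Adamts19 was 3.95, 3.75 and 3.88 with GSK-126, against 3.44, 3.20 and 3.28 in DMSO.

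The collagen-binding integrin gene Itga11 had widths of 331, 259 and 332 bp with GSK-126, against 1745, 1402 and 1366 bp in DMSO (log2 change -2.29). Cxcl5 had 176, 49 and 162 bp with GSK-126, against 832, 757 and 685 bp in DMSO (log2 change -2.76). The protocadherin gene Pcdh10 averaged 297.3 ± 113.2 bp with GSK-126 and 1494.7 ± 397 bp in DMSO (SD, n = 3 each, log2 change -2.36). Each of these was apart, as were the Wnt genes Dkk2 and Rspo3, the receptor Npy5r, Klf2, Cd70 and the cell death gene Bik. Aff1 and Susd5 were called both for higher fold enrichment and for narrower peaks.

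**Figure D5:**
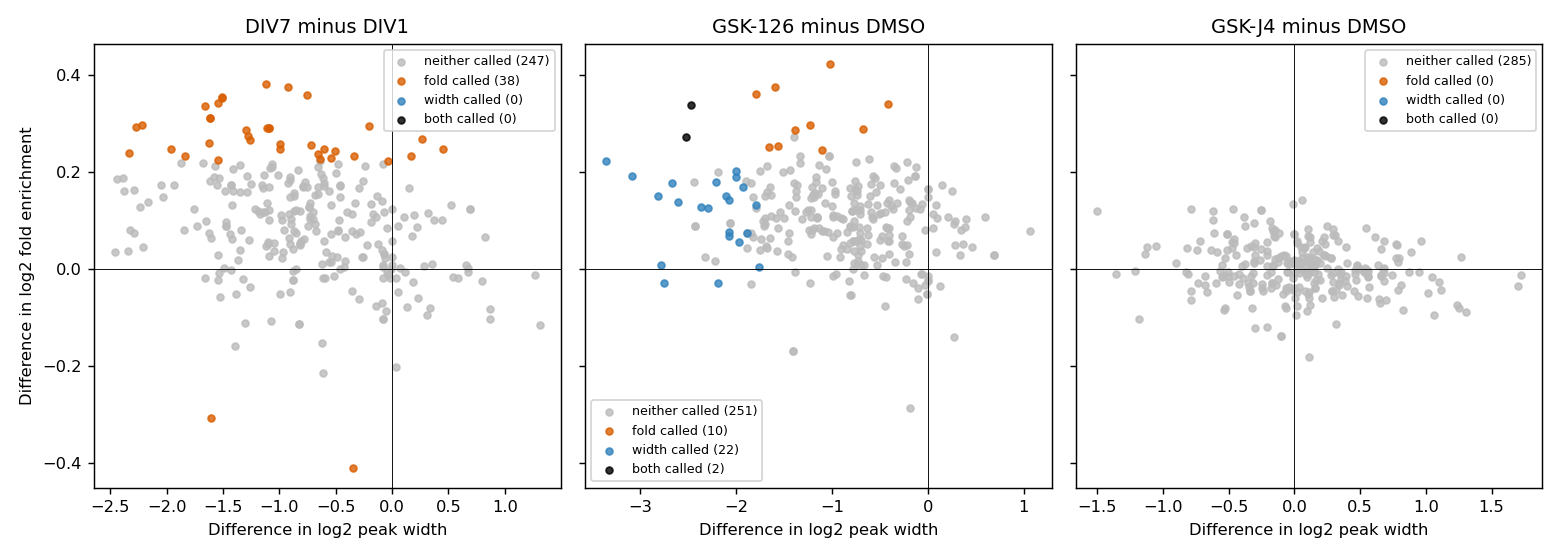
Log2 change in fold enrichment (vertical) against log2 change in peak width (horizontal), 1 point per promoter of the 285, for DIV7 minus DIV1, GSK-126 minus DMSO and GSK-J4 minus DMSO, coloured by which measure was called. The median changes are 0.10, 0.11 and 0.00 in fold enrichment and -0.79, -0.81 and 0.03 in width.

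Because list length differed, the percentage of each 6 kb window covered was also compared after each library was limited to its strongest peaks by p-value, up to the length of the shortest list of its experiment (1.07 Mb for GSK-126, 1.11 Mb for the time course). With GSK-126, coverage was higher at 6 of 277 promoters tested, against 2.45% of all 939 tested, and lower at 17, against 4.37%. The 6 were the steroid reductase gene Srd5a2, Prdm1, Npy, Cartpt, A4galt and Tcfl5. Only promoters covered in 3 libraries or more were fitted. Srd5a2, Prdm1, Cartpt and Tcfl5 had no coverage in DMSO, so they entered through the GSK-126 libraries where they are high. Npy and A4galt had none in a DMSO library and so also needed GSK-126 libraries to enter. The values of these 6 promoters are given as a description. Srd5a2 was covered at 19.6%, 22.3% and 29.9% with GSK-126, against 0% in each DMSO library, and Npy at 18.5%, 19.7% and 28.5%, against 3.48%, 0% and 4.82%. These zeros mean that no peak of the limited list fell there, since the full lists held one in every library.

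The 17 promoters with lower coverage included Pdzrn4, the actin crosslinker Flnc, Cxcl5, Lrat, Rarres1 and Dkk2. All of these but Lrat had no coverage in a GSK-126 library, so they entered the fit through the DMSO libraries where they are high. Their values are likewise given as a description. Flnc was covered at 0%, 5.08% and 3.38% with GSK-126, against 21.5%, 21.3% and 17.8% in DMSO, and Lrat at 16.1%, 16.5% and 13.6%, against 25.9%, 25.8% and 26.1%. In both the groups were apart. The direction depended on the choice of peaks: with all deposited peaks 0 were higher and 35.8% of the 285 lower (5 higher and 636 lower of all 2385), and with the strongest peaks taken by fold enrichment 19 were higher and 4 lower (27 higher and 64 lower of all 749). No promoter was called with replicate as a block or without GSK-126 replicate 1, GSK-126 replicate 3 or DMSO replicate 2. At most 6 were called without any other library, against 6 higher and 16 lower of all 780 without DMSO replicate 1.

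In the time course, coverage at DIV7 was higher than at DIV1 at 1 promoter, against 0.446% of the 1795 tested, and lower at 1, against 0.557%. Kcne3, a regulatory subunit of potassium channels, was covered at 12.7%, 14.3% and 9.62% at DIV7, against 0% in each DIV1 library. Between these days it was covered at 4.58%, 13.7% and 11.6% at DIV3 and at 0%, 3.38% and 0% at DIV5. Here too the zeros are those of the limited lists, since the full lists held a peak in every library. Aqp3, a water and glycerol channel gene, was covered at 2.38%, 4.98% and 7.999% at DIV7, against 19.5%, 18.1% and 20.3% at DIV1. Neither was called with all deposited peaks, and the number of calls was 0 to 6 when single libraries were left out, with 0 without DIV7 replicate 1 and 6 without DIV1 replicate 1. Over all 1653 promoters tested without DIV1 replicate 1, 6 were called higher and 27 lower.

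The GSK-J4 experiment compared cultures given this KDM6 inhibitor at 1 µM with DMSO cultures. The study saw no effect of GSK-J4 on H3K27me3 by western blot or CUT&RUN. It judged the usable dose range in neurons to be too small. The demethylases were therefore not shown to be inhibited here, and the counts cannot say how promoters respond to their inhibition. Of the 285, 0 were called for fold enrichment, 0 for width and 0 for coverage, and among all promoters tested the shares were 0%, 0% and 0%. At an unadjusted p under 0.05, 2 were higher and 1 lower in fold enrichment (9 and 13 of all 880), 3 wider and 1 narrower (12 and 9 of all 880), and 11 higher and 12 lower in coverage (33 and 40 of all 1524). The median change in fold enrichment was 0.00 on the log2 scale with a 95% interval reaching a median of 0.12 to each side, so changes beyond that size at a typical promoter lay outside the interval. For width the median interval reached 1.3006 to each side, and for coverage 7.61 percentage points.

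The smallest p for fold enrichment was at Atp2a3, a calcium pump gene, with 3.53, 3.52 and 3.33 with GSK-J4, against 3.97, 4.06 and 3.73 in DMSO (log2 change -0.18, adjusted p = 0.995). For width it was at Crhbp, which encodes the binding protein of corticotropin-releasing hormone, with 1082, 1027 and 1342 bp with GSK-J4, against 350, 650 and 191 bp in DMSO, and at Tcfl5, with 322, 233 and 300 bp against 717, 749 and 703 bp. The groups were apart at each of the 3 genes, and none passed (adjusted p = 0.998 for both widths, limma).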

How the data were processed

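H3K27me3 was measured by CUT&RUN in 24 libraries, 3 in each of 8 groups given by the labels. The authors trimmed reads (Trimmomatic 0.38), aligned them to mm10 (STAR 2.7.2b) and called broad peaks for each library (MACS2 2.1), and the control used is not given in the sources used here. Each deposited peak has a fold enrichment, which is a ratio to local background in that library. The authors' caller added a −log10 p-value and a −log10 q-value per peak, and the deposited score column was not used. Depths are unknown, and intervals based on read counts are not given. A window without a peak is below the caller's threshold and is not shown to lack the mark.

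Windows were 3 kb on each side of the 5′ end (GENCODE M21). Fold enrichment is the highest value, and width the longest peak, among peaks touching a window. Log2 values were fitted by limma 3.58.1 (R 4.3.3) with its robust empirical Bayes step and two-sided tests, over promoters with a peak in every library of a fit, and coverage over promoters covered in 3 libraries or more. p-values were adjusted over all promoters fitted (Benjamini-Hochberg, 0.05). The 12 time course libraries shared a fit. Other steps used Python 3.11.15 and numpy 2.4.6, with sequence from GRCm38 of RefSeq and words of 32 bases. The fits were first tested on simulated data. The width fits recovered none of the changes put in, at 0.5 or at 1 on the log2 scale. A width that was not called may therefore still have changed.

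Same-numbered GSK-126 and DMSO libraries deviated together in fold enrichment (r = 0.33, 0.14 and 0.39 for replicates 1, 2 and 3), so numbers were taken to pair them. The labels state no pairing, and the main fits had no replicate block. In every other measure and comparison at least 1 pair was at 0.1 or less. Replicates were litter pools per the study's methods, and p-values measure the spread between them. The authors' own tests used DESeq2 1.36.0 on read counts, which peak lists do not hold, so those were not repeated.

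The promoters and gene lists were chosen with earlier results of these data known. Named genes, leaving out Gm and Rik models, were those with the highest, lowest, widest and most shared peaks, up to 6 called per comparison and direction, up to 2 where none was called, up to 4 per gene list, and those nearest to the limit of the rule. A few others are named where a count of list members or a short list turned on them. A few genes of these lists are not reported here.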

Additional observations from a re-analysis of the deposited data

How the results depend on the processing

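The number of promoters marked in every library was 285, with 214 in windows of 1 kb on each side, 282 with at least 50 bp covered and 240 without repeated sequence (an alternative chosen after seeing the data). It was 16 with a −log10 q minimum of 2, 57 with all lists cut to equal summed length, and 285 to 341 when each library was left out in turn.

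With the replicate block, the share of the 285 promoters called for fold enrichment between DIV7 and DIV1 was 8.42% (24 promoters, against 38 without it), that for fold enrichment with GSK-126 was 11.6% (33, against 12), and those for width (24) and coverage (23) with GSK-126 became 0%, while no other count moved by over 1.5 times. Over all promoters tested, the block called 37 higher and 2 lower of 487 in fold enrichment at DIV7. With each library centred on its median, the share was 2.11% for fold enrichment with GSK-126, 0.702% for width at DIV7 and 0% for width with GSK-126. For width at DIV7 this stood against 7 wider and 4 narrower of all 487. With a −log10 q minimum of 2, which leaves 16 promoters with a peak in all libraries, few promoters could be fitted. Of the 285, 23 were tested at DIV7 and 24 with GSK-126. The share of the 285 was 0% for fold enrichment in both comparisons, 0.351% for width at DIV7 and 0% for width with GSK-126. The 0.351% was 1 promoter of the 23 tested, narrower at DIV7, and the 0% values cover only the promoters tested. All shares in this section are of the 285, also where a setting tested fewer. Weighting fold enrichment by length gave 9.12% with GSK-126, against 121 higher and 1 lower of all 733. Without replicate 1 of every day, DIV7 differed from DIV1 at 38.6% of the 285 promoters in fold enrichment, 10.9% in width and 0% in coverage. Over all 804 promoters tested, 261 were then higher and 12 lower in fold enrichment, and 85 narrower. Coverage at DIV7 was called at 0% with all deposited peaks and at 0% with peaks ranked by fold enrichment. Coverage with GSK-126 was called at 35.8% with all deposited peaks and at 4.91% when promoters covered in at least 1 library were fitted. In the latter fit 24 were higher and 26 lower of all 3770. Among the 240 promoters without repeated sequence, 35 were called for fold enrichment at DIV7, 12 for fold enrichment, 22 for width and 19 for coverage with GSK-126, and 2 for coverage at DIV7. Over all promoters tested, repeated or not, 13.3% were higher and 0.616% lower in fold enrichment at DIV7. With GSK-126 the shares were 8.32% for fold enrichment, 6.41% for width, and 2.45% higher and 4.37% lower for coverage. For coverage at DIV7 they were 0.446% higher and 0.557% lower. The causes were not tested.

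Leaving out single libraries gave shares of 3.16% to 18.6% for fold enrichment at DIV7, 1.75% to 35.8% for fold enrichment with GSK-126, 0% to 7.37% for width at DIV7, 0% to 11.6% for width with GSK-126, 0% to 2.11% for coverage in both comparisons, and 0% for each GSK-J4 measure.

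The direction of the coverage change with GSK-126 turned round with all deposited peaks at Srd5a2 (-3.24 percentage points), Prdm1 (-8.88), A4galt (-8.19), Cartpt (-9.12) and Tcfl5 (-0.95), and with peaks ranked by fold enrichment at Pdzrn4 (2.81) and Lrat (15.4). Of 350 alternatives over 33 results of named promoters, 197 kept their direction and side of the threshold, 146 kept the direction and no longer passed, and 7 turned round.

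Peaks near the limit of the caller decide membership, and read depth is unknown. The part of list length in widths was not tested, and 3 libraries a group leave wide intervals. Fold enrichment within a library is a relative measure, so a global loss of the mark need not show in it.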
